A study of Mus musculus with 9 samples.

Results

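The genes described are 40 named genes of S phase and DNA replication, chosen by symbol from what their proteins are known to do: origin licensing, helicase activation, fork synthesis, nucleotide supply, chromatin assembly, and the cyclin E and E2F genes that time entry into S phase. Rows were found for 39 of the 40 among the 18188 genes listed in each library. Tk1 was not analysed here. The libraries were poly(A) RNA-seq of mouse CD8+ T cells from spleen, with 5 libraries of genotype WT and 4 of genotype Rig1 KO (titled KO_Rig1), under a series title that names RIG-I as a checkpoint on the antitumor response of these cells. RIG-I detects viral RNA in the cytosol, and the files list its gene as Ddx58. How the knockout was made, which exons it removes, strain, age, any tumour or stimulation, the purification of the cells, and whether each library was 1 animal are not given in the sources used here, so p-values measure the spread between these libraries, which may be technical in part.

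Replication is prepared in G1, when the origin recognition complex, CDC6 and CDT1 load the ring-shaped MCM2-7 helicase onto DNA. At the start of S phase, cyclin E with CDK2 and the kinase CDC7 with DBF4 bring CDC45 and the GINS complex to the ring, the helicase starts to unwind, and polymerases held by the sliding clamp PCNA copy both strands. Resting splenic T cells cycle little, and an activated CD8+ T cell induces most of these genes together through the E2F factors once RB is phosphorylated. A transcript level in a mixed population reads the share of cells in cycle as well as the level within a cell.

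The whole-series facts that bear on these genes are few. Between 15496262 and 17893558 reads per library could be recovered from the deposited values. Ddx58 lay between 63.2 and 67.4 TPM, a level scaled for gene length and sequencing depth, in the WT libraries and between 30.6 and 35.2 in the Rig1 KO libraries, with no overlap (log2 fold change -0.95, SE 0.0550, limma adjusted p = 4.91e-07). The label CD8+ was checked against Cd8a, which ran from 1558 to 1833 TPM over the WT libraries and from 2355 to 2748 TPM over those of Rig1 KO, and Cd4, at no more than 34.7 TPM in any library. Markers of other blood cells were also present and are given after the results. Fewer cells of a type and less RNA per cell cannot be told apart in such bulk libraries.

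Of the 39 genes found, 38 had at least 1 TPM in at least 4 libraries and were tested, and 12 of them passed at an adjusted p of 0.05 (31.6%). Gins3, Rpa2, Rrm1, Rrm2, Tyms, Ccne1 and E2f8 were higher in Rig1 KO, and Orc6, Cdt1, Pcna, Slbp and Ccne2 were lower. The background is high: 45.7% of the 10540 genes tested passed, 33.5% higher and 12.2% lower in Rig1 KO. Of the replication genes, 18.4% were higher and 13.2% were lower, and the difference between these shares and those of all genes was not tested. The median log2 fold change was 0.12 over the 38 genes and 0.13 over all genes tested. Dividing each library by its median ratio size factor brought the median of all genes to 0.01, gave 23.7% higher and 21.5% lower among the 10535 genes tested (45.2% in all), and gave 6 higher and 8 lower among the replication genes. Rpa2 then no longer passed, and Mcm4, Mcm5 and Rfc3 joined the lower ones.

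**Figure D1:**
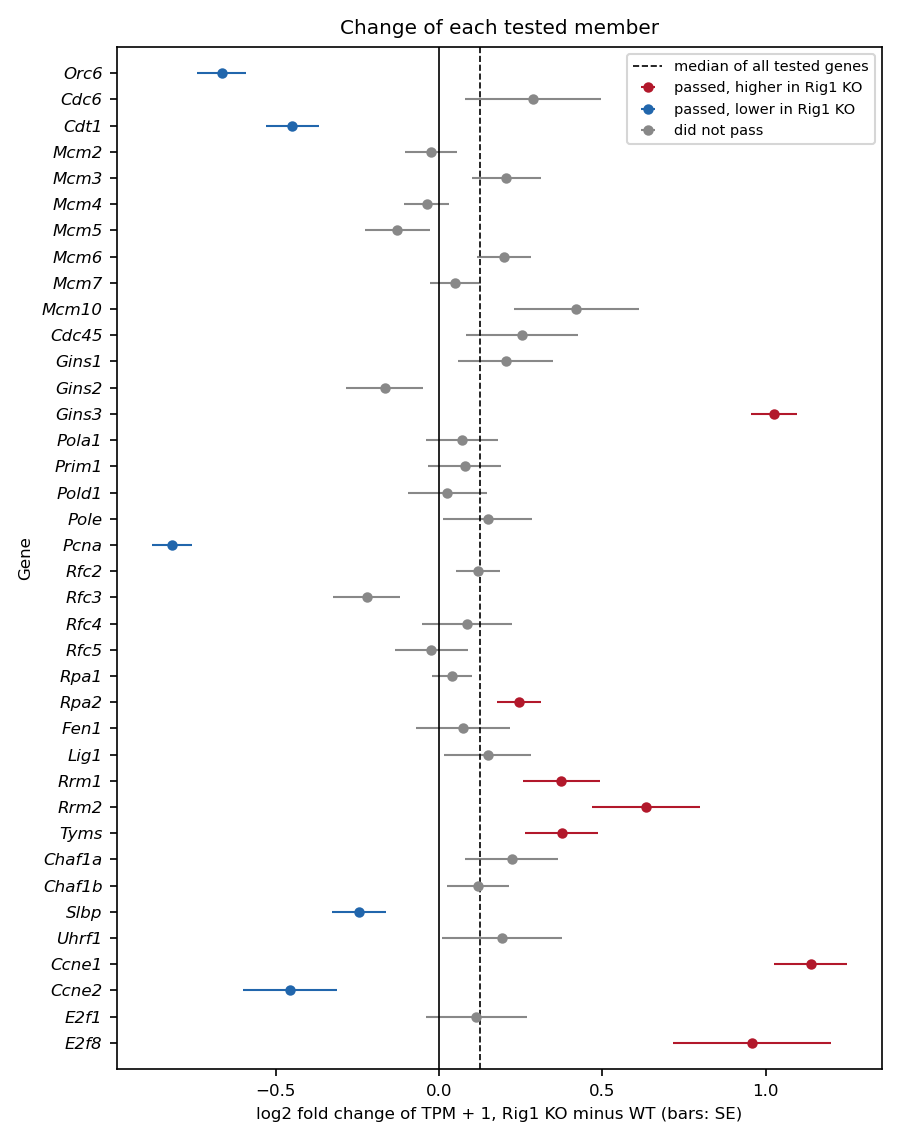
Log2 fold change of TPM + 1, Rig1 KO minus WT, for each of the 38 tested genes in the order of their roles, with bars of 1 SE; red and blue points passed at an adjusted p of 0.05, grey points did not, and the dashed line is the median of all tested genes (0.13). The 26 grey points lie between -0.22 and 0.42, and Ccne1, Gins3 and E2f8 at the right and Pcna and Orc6 at the left lie farthest from 0.

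The groups did not overlap for 8 of the 38 genes. Gins3, Rpa2, Ccne1 and E2f8 had each of their Rig1 KO values above the highest WT value, and Orc6, Cdt1, Pcna and Ccne2 had each of them below the lowest. Over all 10540 genes tested, 28% lay wholly above and 10.1% wholly below in the same way. The genes that passed did not fall into 1 step of replication. Genes of nucleotide supply had 3 higher of 3 tested, and those of origin licensing had 2 lower and 0 higher of 9. Helicase activation had 1 higher of 5, the fork 1 higher and 1 lower of 13, and chromatin assembly 1 lower of 4. The E2F and cyclin E genes had 2 higher and 1 lower of 4. Among all 10540 genes tested, 33.5% were higher and 12.2% lower, and the difference between each role and these shares was not tested.

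Most of these genes are textbook targets of E2F, so their promoters were read from RefSeq for the GRCm38.p6 build, each a window of 300 bases that ends 50 bases after the gene's start. A window was matched by symbol for 33 of the 39 genes. Mcm4, Gins1, Gins2, Pole, Rfc2 and Ccne2 had no window and were not searched. The letters searched on both strands were TTTCCCGC, TTTCGCGC, TTTGCCGC and TTTGGCGC, forms of the E2F site. They were found in 13 of the 33 genes (39.4%), in 410 of the 8495 tested genes with a window (4.83%), and in 744 of all 32851 promoter windows of that length (2.26%). A match was held by 1 of 7 higher genes (Gins3), 1 of 4 lower genes (Cdt1, downstream of its start), 10 of 21 genes that did not pass, and Orc1, which was not tested; the difference between these shares was not tested. Below are the 250 bases before the start of 6 genes, on the gene's strand and 5′ to 3′, chosen to set 2 helicase subunits that hold matches and did not pass beside the 4 genes with the smallest p among those that changed, with every match on either strand in capitals. Mcm6 lies at chr1:128359706-128359955 on the minus strand, Mcm5 at chr8:75109259-75109508 on the plus strand, Gins3 at chr8:95633309-95633558 on the plus strand, Ccne1 at chr7:38107491-38107740 on the minus strand, Pcna at chr2:132253181-132253430 on the minus strand and Orc6 at chr8:85299382-85299631 on the plus strand.
Mcm6: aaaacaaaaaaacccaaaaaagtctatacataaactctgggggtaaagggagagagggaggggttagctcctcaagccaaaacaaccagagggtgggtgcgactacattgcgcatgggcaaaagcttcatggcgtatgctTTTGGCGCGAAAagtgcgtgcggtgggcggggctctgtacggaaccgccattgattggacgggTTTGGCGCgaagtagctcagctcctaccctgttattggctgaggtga
Mcm5: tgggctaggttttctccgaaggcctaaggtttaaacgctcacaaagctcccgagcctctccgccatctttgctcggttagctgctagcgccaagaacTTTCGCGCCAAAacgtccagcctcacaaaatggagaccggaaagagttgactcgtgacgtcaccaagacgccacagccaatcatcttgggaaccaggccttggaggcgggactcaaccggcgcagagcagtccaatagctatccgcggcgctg
Gins3: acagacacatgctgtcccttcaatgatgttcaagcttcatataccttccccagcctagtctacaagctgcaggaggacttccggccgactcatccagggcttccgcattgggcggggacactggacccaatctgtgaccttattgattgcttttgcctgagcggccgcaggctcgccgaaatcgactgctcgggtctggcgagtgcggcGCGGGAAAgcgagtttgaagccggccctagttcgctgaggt
Ccne1: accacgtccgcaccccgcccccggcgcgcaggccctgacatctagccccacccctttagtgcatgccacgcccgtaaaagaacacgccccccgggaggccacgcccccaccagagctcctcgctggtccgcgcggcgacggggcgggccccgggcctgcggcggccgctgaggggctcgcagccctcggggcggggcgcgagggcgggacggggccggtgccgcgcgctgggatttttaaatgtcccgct
Pcna: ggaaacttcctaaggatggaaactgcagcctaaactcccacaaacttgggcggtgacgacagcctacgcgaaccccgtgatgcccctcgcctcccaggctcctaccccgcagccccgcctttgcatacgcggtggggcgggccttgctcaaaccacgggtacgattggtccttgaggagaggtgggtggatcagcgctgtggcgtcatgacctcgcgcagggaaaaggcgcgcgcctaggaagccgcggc
Orc6: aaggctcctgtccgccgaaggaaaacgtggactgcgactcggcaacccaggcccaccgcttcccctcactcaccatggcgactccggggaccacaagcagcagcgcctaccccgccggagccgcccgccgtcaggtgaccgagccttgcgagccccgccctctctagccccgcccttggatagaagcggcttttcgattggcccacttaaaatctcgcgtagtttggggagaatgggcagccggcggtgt

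In the Mcm6 stretch the first run of capitals holds 2 matches that overlap on opposite strands, and a further match lies nearer to the start, which makes 3. The Mcm5 run is also 2 overlapping matches, and Gins3 has 1, on the other strand. No match was found in the printed stretches of Ccne1, Pcna and Orc6, which says only that these letters are not in those windows. The CCAAT letters, the core of a site common in cell-cycle promoters, were in 22 of the 33 genes (66.7%) and 43.3% of the tested genes. The letters TTTGAA, a form of the cell-cycle homology region element, were in 5 (15.2%) and 14.3%. A match is a run of letters and not evidence of binding.

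**Figure D2:**
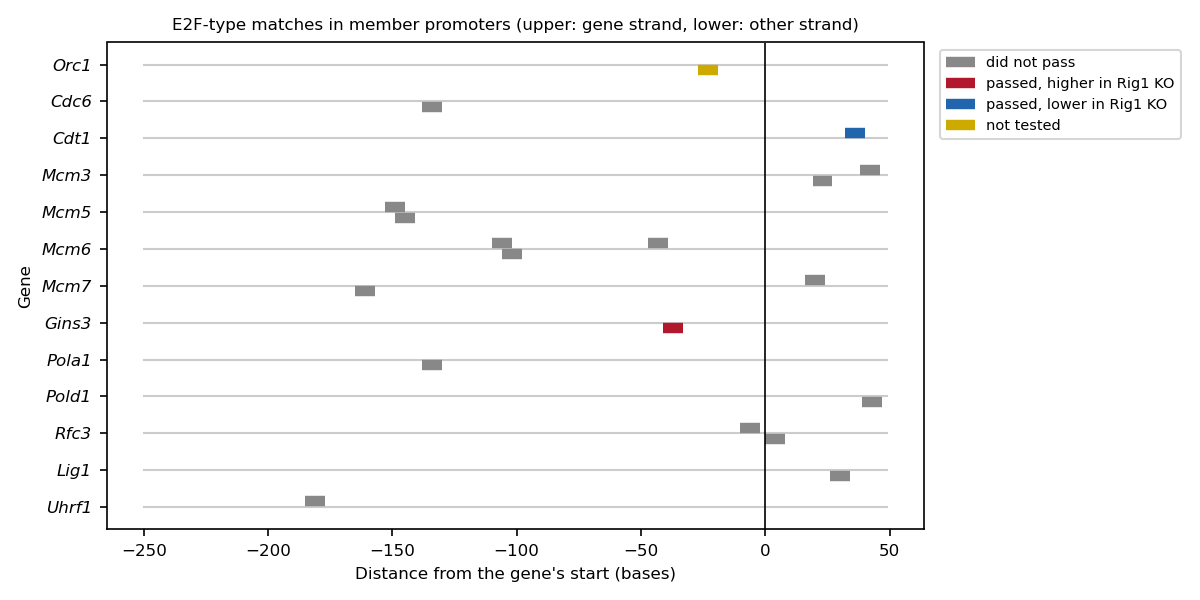
Place of each E2F-type match in the promoter windows of the 13 genes that hold one, as distance in bases from the gene's start, with matches on the gene's strand drawn above each line and those on the other strand below it. The coloured boxes are Gins3 (higher), Cdt1 (lower) and Orc1 (not tested), and the grey boxes belong to the 10 genes that did not pass.

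Among the licensing genes, Orc6 and Cdt1 fell while the 6 subunits of the MCM2-7 ring did not pass. Orc6 encodes the smallest subunit of the origin recognition complex. It was at 59.2, 55.4, 55.4, 47.9 and 47.1 TPM in WT 1 to 5 and at 33.3, 30.9, 33.0 and 34.6 TPM in Rig1 KO 1 to 4. The lowest WT library was above the highest Rig1 KO library, and the means of 53.0 ± 5.25 (SD, n = 5) and 32.9 ± 1.53 TPM (SD, n = 4) differed 1.61-fold (log2 fold change -0.67, SE 0.0758, adjusted p = 6.24e-05). Orc1, the subunit that binds ATP and marks origins, was close to the limit of detection with 13 to 48 reads per library. Its values were 0.898, 0.581, 0.582, 0.577 and 0.283 TPM in WT and 0.229, 0.285, 0.396 and 0.325 TPM in Rig1 KO, which overlap, and it was not tested.

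Cdt1 brings the helicase to the origin together with CDC6. Its values were 139.8, 151, 131, 136 and 145 TPM in the WT libraries and 98.8, 88.4, 107 and 118 TPM in the Rig1 KO libraries, a 1.36-fold difference with no overlap (log2 fold change -0.45, SE 0.0807, adjusted p = 0.00119). With the B cell marker level as a covariate the adjusted p was 0.0859, the highest over 18 alternatives, of which the lowest was 0.000158. Cdc6, the loader's ATPase, spread widely in WT, from 4.505 to 11.6 TPM, and lay at 8.38 to 10.6 TPM in Rig1 KO (adjusted p = 0.282).

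The MCM2-7 subunits form the helicase itself. Mcm2 was at 66.9, 65.5, 70.2, 84.8 and 74.8 TPM in WT and at 67.8, 66.7, 75.3 and 74.0 TPM in Rig1 KO, so the Rig1 KO libraries lay within the WT range (log2 fold change -0.02, SE 0.0792, adjusted p = 0.819). Mcm5 was at 52.7, 45.7, 52.4, 64.4 and 62.0 TPM in WT and at 50.2, 46.3, 55.3 and 49.7 TPM in Rig1 KO, again within it (log2 fold change -0.13, SE 0.0987, adjusted p = 0.314). Mcm7 was at 142, 131, 142, 174 and 153 TPM against 143, 157, 159 and 153 TPM (log2 fold change 0.05, SE 0.0772, adjusted p = 0.620). In each of these 3 the highest library was WT 4. The signs of these small differences turned under some alternatives, and Mcm5 passed as lower after median ratio scaling (log2 fold change -0.25, adjusted p = 0.0273; over 18 alternatives its adjusted p ran from 0.00925 to 0.972). Mcm3, Mcm4 and Mcm6 had log2 fold changes of 0.21, -0.04 and 0.20, with adjusted p of 0.137, 0.681 and 0.0728.

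Of the genes that turn the loaded ring into a moving helicase, Gins3 rose. It encodes 1 subunit of GINS, which holds the ring and CDC45 together. Gins3 was at 6.79, 6.204, 6.24, 7.25 and 6.35 TPM in WT and at 13.6, 14.8, 15.1 and 14.1 TPM in Rig1 KO. The groups were far apart relative to their spread, with means of 6.57 ± 0.448 and 14.4 ± 0.676 TPM, a 2.19-fold difference (log2 fold change 1.02, SE 0.0692, adjusted p = 1.53e-06), from 103 to 255 reads per library. Its partners in the same complex did not pass: Gins1 had a WT mean of 2.17 ± 0.528 TPM and a Rig1 KO mean of 2.64 ± 0.525 TPM, and Gins2 had 5.44 ± 1.03 and 4.68 ± 0.302 TPM, both with an adjusted p of 0.273. Whether Gins3 changed more than its partners was not tested. Gse1, on the opposite strand, covers 25.8% of the Gins2 span, and since the sources do not say whether reads were counted by strand, its reads may be in the Gins2 value. Mcm10 and Cdc45, which help the helicase start, had log2 fold changes of 0.42 and 0.25 with adjusted p of 0.0955 and 0.246.

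At the fork, Pcna fell and Rpa2 rose, and the other 11 genes did not pass. Pcna, the sliding clamp that tethers the polymerases, was at 438, 406, 416, 441 and 405 TPM in WT and at 225, 223, 265 and 244 TPM in Rig1 KO. The highest Rig1 KO library, at 265 TPM, was far below the lowest WT library, at 405 TPM. The means were 421 ± 17.2 and 239 ± 19.9 TPM, 1.76-fold lower in Rig1 KO (log2 fold change -0.82, SE 0.0615, adjusted p = 3.24e-06), from 1321 to 2961 reads.

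Rpa2, a subunit of the complex that coats single-stranded DNA, was at 38.6, 37.2, 40.1, 45.0 and 40.6 TPM in WT and at 45.2, 46.8, 47.7 and 51.9 TPM in Rig1 KO. The gap between WT 4 and Rig1 KO 1 was small, and the difference was 1.19-fold (log2 fold change 0.24, SE 0.0660, adjusted p = 0.0116). The call was lost after median ratio scaling (adjusted p = 0.0702), with the B cell marker covariate (0.108) and with the mitosis gene covariate (0.0761). Over 18 alternatives the adjusted p ran from 0.00536 to 0.108. Its partner Rpa1 had a WT mean of 45.4 ± 1.14 TPM and a Rig1 KO mean of 46.8 ± 3.95 TPM (adjusted p = 0.612). The clamp loader genes Rfc2, Rfc3, Rfc4 and Rfc5, which open PCNA and place it on DNA, had adjusted p of 0.174, 0.104, 0.635 and 0.876, with Rfc3 the lowest at a log2 fold change of -0.22. The polymerase and primase genes Pola1, Prim1, Pold1 and Pole had adjusted p from 0.393 to 0.876. Fen1 and Lig1, which trim and seal Okazaki fragments, were at 10.1 ± 2.30 and 16.8 ± 3.24 TPM in WT and at 10.5 ± 0.566 and 18.6 ± 2.60 TPM in Rig1 KO, with adjusted p of 0.693 and 0.380.

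**Figure D3:**
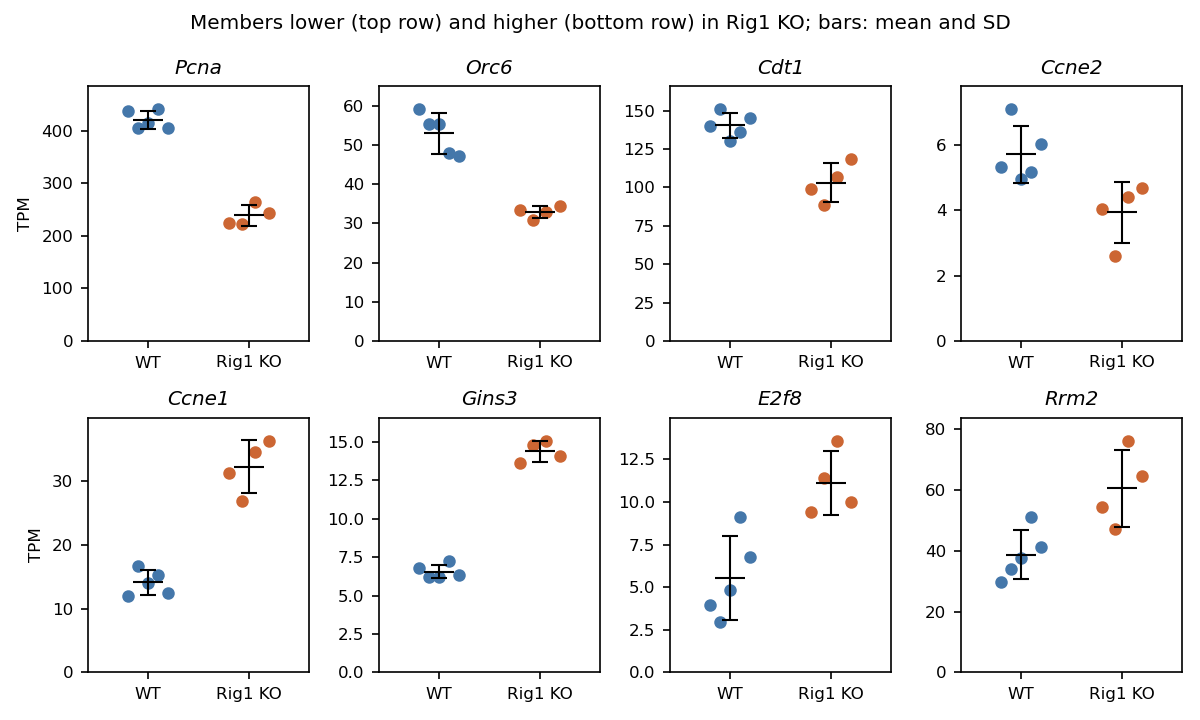
TPM in each library for 4 genes that fell (top row) and 4 that rose (bottom row) in Rig1 KO, with each point a library, blue for WT and orange for Rig1 KO, bars giving mean and SD, and all axes starting at 0. The groups are apart in 7 panels, and in the Rrm2 panel WT 4 at 51.0 TPM lies above Rig1 KO 2 at 47.1 TPM.

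The 3 tested genes of nucleotide supply all rose in the main fit. With the mitosis gene covariate 1 of the 3 was higher, beside 2423 of all 10540 genes. Without Rig1 KO 4 it was also 1, beside 2835. Rrm2, the subunit of ribonucleotide reductase that limits its activity in S phase, was at 29.6, 33.9, 37.7, 51.0 and 41.3 TPM in WT and at 54.5, 47.1, 76.2 and 64.6 TPM in Rig1 KO. The groups overlapped through WT 4 and Rig1 KO 2, and the means of 38.7 ± 8.15 and 60.6 ± 12.6 TPM differed 1.57-fold (log2 fold change 0.63, SE 0.165, adjusted p = 0.00951). Rrm1, the catalytic subunit of the same enzyme, was at 20.7, 20.5, 21.4, 29.6 and 24.8 TPM in WT and at 27.4, 27.2, 34.5 and 32.8 TPM in Rig1 KO. Here too WT 4 lay inside the Rig1 KO range, and the 1.30-fold difference (log2 fold change 0.37, SE 0.117, adjusted p = 0.0238) lost its call when WT 1, WT 2, WT 3, Rig1 KO 3 or Rig1 KO 4 was left out (adjusted p from 0.0508 to 0.0726). With the mitosis gene covariate its log2 fold change was 0.16 (adjusted p = 0.123), and over 18 alternatives the adjusted p ran from 0.00254 to 0.123.

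Tyms, which makes thymidylate, was at 5.89, 4.72, 5.87, 6.83 and 6.26 TPM in WT and at 6.76, 7.42, 8.48 and 9.20 TPM in Rig1 KO. The groups touched, with WT 4 just above Rig1 KO 1, and the difference was 1.35-fold (log2 fold change 0.38, SE 0.111, adjusted p = 0.0178). The call was lost without Rig1 KO 4 (adjusted p = 0.0590), with the B cell marker covariate (0.0944) and with the mitosis gene covariate (0.120). Over 18 alternatives the adjusted p ran from 0.0127 to 0.120.

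Slbp, which binds the end of histone mRNAs, was the chromatin gene that changed. It was at 48.9, 43.5, 45.6, 49.5 and 40.5 TPM in WT and at 33.1, 38.2, 41.5 and 40.6 TPM in Rig1 KO, a 1.19-fold decrease in which WT 5 fell within the Rig1 KO range (log2 fold change -0.25, SE 0.0822, adjusted p = 0.0315). The call was lost without WT 1, WT 3, WT 4, Rig1 KO 1 or Rig1 KO 2 (adjusted p from 0.0554 to 0.0887), with no filter on low values (0.0526) and with the B cell marker covariate (0.148), the highest of 18 alternatives, of which the lowest was 0.00254. Chaf1a and Chaf1b, of the assembly factor that deposits histones behind the fork, and Uhrf1, which brings the maintenance methyltransferase to new DNA, had log2 fold changes of 0.22, 0.12 and 0.19 and adjusted p of 0.225, 0.329 and 0.415. Ubxn6, on the opposite strand, covers 16.5% of the Chaf1a span.

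The 2 cyclin E genes passed in opposite directions, and the fall of Ccne2 was the less certain of these results. Ccne1, the cyclin that with CDK2 drives entry into S phase, was at 12.0, 16.7, 14.1, 15.2 and 12.5 TPM in WT and at 31.2, 26.8, 34.5 and 36.3 TPM in Rig1 KO. With means of 14.1 ± 1.92 and 32.2 ± 4.17 TPM, its 2.28-fold rise was the largest of the 38 genes (log2 fold change 1.14, SE 0.111, adjusted p = 2.17e-05). Ccne2, its paralog, was at 5.33, 7.10, 4.95, 5.16 and 6.02 TPM in WT and at 4.04, 2.61, 4.41 and 4.68 TPM in the Rig1 KO group. There was no overlap, although WT 3 and Rig1 KO 4 were close, and the 1.45-fold difference (log2 fold change -0.46, SE 0.144, adjusted p = 0.0244) rests on 52 to 139 reads per library. The call was lost in 6 of 17 alternatives, over which the adjusted p ran from 0.00834 to 0.462. The 6 were no filter on low values, the replicate block, the B cell marker covariate and the mitosis gene covariate, and the libraries left out. Those were WT 2 alone (adjusted p = 0.0544), and WT 4 and WT 5 together. Ints8, on the opposite strand, covers 41.9% of the Ccne2 span, so the Ccne2 values are uncertain.

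E2f8 is an atypical E2F that represses E2F targets late in S phase. It was at 3.93, 2.94, 4.87, 9.14 and 6.79 TPM in WT and at 9.42, 11.4, 13.6 and 10.01 TPM in Rig1 KO. WT 4 came close to Rig1 KO 1 without overlap, and the means of 5.53 ± 2.47 and 11.1 ± 1.86 TPM differed 2.01-fold (log2 fold change 0.96, SE 0.242, adjusted p = 0.00816). E2f1, an activating E2F, was at 9.35, 8.90, 9.51, 15.8 and 12.8 TPM in WT and at 12.3, 10.3, 12.0 and 13.5 TPM in Rig1 KO, with WT 4 the highest of the 9 libraries (log2 fold change 0.11, SE 0.155, adjusted p = 0.569).

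Across the libraries, these genes tended to be high or low together within a genotype. Of the 38 tested genes, 25 had their highest WT value in WT 4 and 25 their lowest in WT 2, and 26 had their highest Rig1 KO value in Rig1 KO 3. After median ratio scaling the counts were 23, 18 and 17. The mean of log2(TPM + 1) over the members, taken from the WT mean, was -0.06, -0.16, -0.02, 0.22 and 0.02 in WT 1 to 5 and 0.03, 0.00, 0.26 and 0.19 in Rig1 KO 1 to 4. WT 4 was thus above 3 of the 4 Rig1 KO libraries. Left out, WT 4 took Mcm3, Mcm6, Mcm10 and Chaf1a past the threshold, and 11 genes were then higher in Rig1 KO in place of 7. Over all 10540 genes tested, 3391 were then higher in place of 3526. Orc6, Pcna, Gins3, Rrm2, Ccne1 and E2f8 kept their call in each of the 18 alternatives run. With the mitosis gene covariate, the log2 fold change of Rrm2 went from 0.63 to 0.32 and that of E2f8 from 0.96 to 0.51. Those of Orc6, Pcna, Gins3 and Ccne1 were then -0.59, -0.88, 0.98 and 1.08, against -0.67, -0.82, 1.02 and 1.14 in the main fit.

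**Figure D4:**
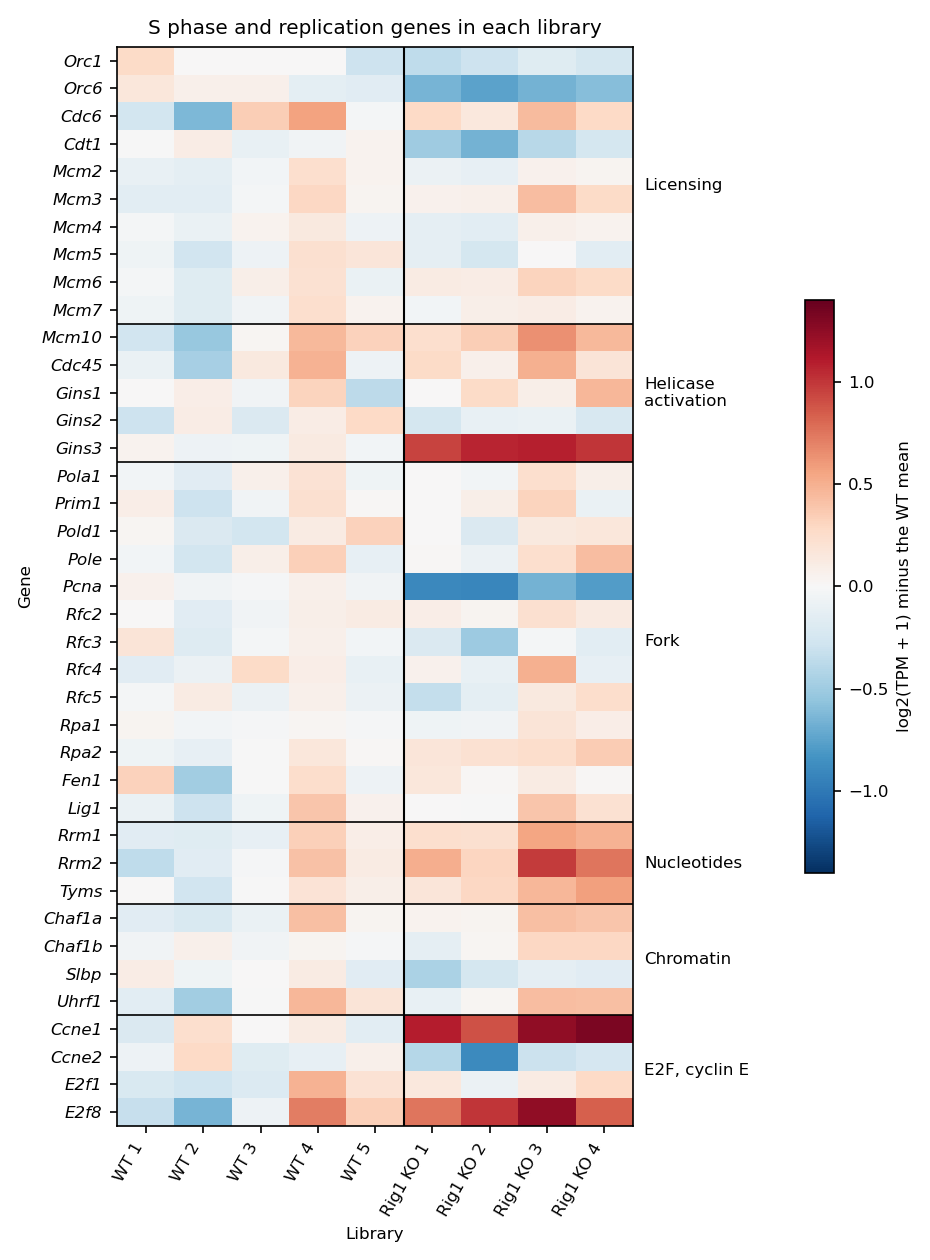
Log2(TPM + 1) minus the WT mean for each of the 39 genes (rows, grouped by role) in each of the 9 libraries (columns), red above and blue below the WT mean. Gins3 and Ccne1 are red and Orc6 and Pcna blue across the 4 Rig1 KO columns, while WT 4 is red in most other rows.

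The other genes of replication and the cell cycle gave the following counts. Of 50 further replication genes tested, 16 rose and 3 fell, while 31 did not pass, at a median log2 fold change of 0.14. Among all 10540 genes tested, 33.5% were higher and 12.2% lower, at a median of 0.13. After median ratio scaling 13 of the 50 were higher and 9 lower, beside 23.7% and 21.5% of all genes. The differences from these shares were not tested. The 4 of smallest p among the higher ones were Dctd, a deaminase that supplies the substrate of thymidylate synthase (WT mean 2.09 ± 0.183 TPM, Rig1 KO mean 3.70 ± 0.298 TPM), Tipin of the fork protection complex (7.81 ± 0.767 and 12.3 ± 1.18 TPM), Rrm2b, the p53-induced small subunit of ribonucleotide reductase (9.60 ± 0.711 and 15.2 ± 2.12 TPM), and Orc4 (12.1 ± 0.878 and 16.9 ± 1.47 TPM), with adjusted p from 0.000262 to 0.000937. The 3 lower ones were Nasp, a histone chaperone (47.6 ± 4.35 and 27.9 ± 3.19 TPM, adjusted p = 7.8e-05), Pole3 (105 ± 5.89 and 90.4 ± 3.70 TPM, adjusted p = 0.00876) and Dbf4, the activator of CDC7 (31.1 ± 3.02 and 24.3 ± 2.94 TPM, adjusted p = 0.0103).

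Of 29 genes of G1 and S phase control, 14 rose and 3 fell, while 12 did not pass, at a median log2 fold change of 0.25 (9 higher and 5 lower after median ratio scaling). The shares of all genes were 33.5% higher and 12.2% lower (23.7% and 21.5% after that scaling), and the difference was not tested. The D-type cyclins Ccnd2 and Ccnd3, which open the RB pathway, were at 155 ± 8.93 and 23.7 ± 1.05 TPM in WT and at 257 ± 17.5 and 33.5 ± 2.18 TPM in Rig1 KO (adjusted p = 9.06e-06 and 0.000136). Their partner Cdk4 was at 215 ± 16.3 and 278 ± 7.996 TPM (adjusted p = 0.000742), and E2f2, an activating E2F, at 17.2 ± 3.36 and 26.9 ± 1.38 TPM (adjusted p = 0.00188). The CDK inhibitors Cdkn1c and Cdkn1a fell, from 5.61 ± 1.31 to 1.08 ± 0.427 TPM and from 9.06 ± 2.38 to 2.76 ± 0.735 TPM (adjusted p = 4.54e-05 and 0.000170), with 2 to 27 reads per library behind Cdkn1c. Lin9, of the complex that represses cell-cycle genes in quiescence and activates them later, was at 7.61 ± 0.312 and 6.36 ± 0.698 TPM (adjusted p = 0.0339).

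Of 25 mitosis genes, 4 rose and 1 fell, while 20 did not pass, at a median log2 fold change of 0.40. The shares of all genes were 33.5% higher and 12.2% lower, at a median of 0.13, and the difference was not tested. Ccnb1, the mitotic cyclin, had a WT mean of 8.56 ± 4.15 TPM and a Rig1 KO mean of 16.3 ± 3.57 TPM (adjusted p = 0.0174), and Anln, Cenpe and Plk1 also rose (adjusted p from 0.0124 to 0.0251). Cenpa, the centromeric histone, fell from 98.9 ± 11.3 to 66.2 ± 4.29 TPM (adjusted p = 0.000330). Mki67, a marker of cycling cells, was at 65.7 ± 18.0 and 94.8 ± 20.8 TPM, and did not pass (adjusted p = 0.0509). The mitosis mean followed the same order of libraries as the replication mean within each genotype, at -0.25, -0.40, 0.04, 0.47 and 0.13 in WT and 0.21, 0.12, 0.58 and 0.46 in Rig1 KO. With that mean as a covariate, 4 replication genes were higher in place of 7. Of the mitosis genes, whose own mean is the covariate, 0 were then higher and 3 lower, beside 1246 lower of all 10540 genes. In fits with no covariate, the 4 higher mitosis genes became 15 without WT 4 and 18 without WT 4 and WT 5 together. They became 7 without Rig1 KO 1 or Rig1 KO 2, 2 without WT 2 or Rig1 KO 4, and 1 without Rig1 KO 3. The higher count over all 10540 genes was 3526 in the main fit and 2423 with the covariate. It was 3391 without WT 4 and 3651 without WT 4 and WT 5.

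Markers of other cell types moved with the genotype and, in part, with the replication genes. The counts below from the main fit stand beside 33.5% higher and 12.2% lower among all genes tested. With each library left out in turn, 2835 to 3610 of all 10540 genes were higher and 1101 to 1285 lower. Of the 8 B cell markers tested 7 fell and 0 rose, and their summed level, over the 9 listed, ran from 161 to 1121 TPM over the WT libraries and from 92.9 to 193 TPM over those of Rig1 KO. Of the 8 erythroid markers tested 4 rose and 0 fell, and 7 rose without WT 4 and 8 without WT 4 and WT 5. The summed level of the 11 listed ran from 89.7 to 242 TPM and from 214 to 369 TPM, and their mean had the same order of WT libraries as the replication genes, as did that of the basophil markers, while the order of the Rig1 KO libraries differed for both. Of 7 germinal centre and plasma cell markers tested 3 rose and 0 fell, at sums of 170 to 261 and 245 to 286 TPM. Of 11 myeloid markers 4 rose and 2 fell, at a median log2 fold change of -0.59 (296 to 1034 and 472 to 680 TPM), while 6 fell without WT 3 and 0 fell without Rig1 KO 4. Of 8 basophil markers 7 rose and 1 fell (20.8 to 64.9 and 225 to 428 TPM), and of 8 NK cell markers 5 rose and 0 fell (212 to 341 and 558 to 618 TPM). Of 7 CD8+ T cell markers 6 rose and 0 fell. After median ratio scaling 3 were higher and 1 lower, beside 23.7% and 21.5% of all genes. Under the B cell marker covariate 2 were higher and 0 lower, beside 2259 and 614 of all 10540 genes. Of 3 CD4 T cell markers 1 fell and 0 rose. Without WT 3, 2 fell, and without WT 5, 2 fell and 1 rose. Their summed level was 66.0 TPM in WT 5, 19.5 to 29.6 TPM in WT 1 to 4 and 20.3 to 23.4 TPM in Rig1 KO. The part of these cells in the levels of the replication genes was not tested. With WT 4 and WT 5 left out, whose B cell marker level was the highest, 12 replication genes were higher and 4 lower. These 2 were also the highest WT libraries in the replication means (0.22 and 0.02), mitosis means (0.47 and 0.13) and erythroid means (0.97 and 0.45). Leaving them out therefore also lowers the WT level of the replication genes, and what part B cells have in the 12 was not tested. Of all 10540 genes tested, 3651 were then higher and 1103 lower.

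**Figure D5:**
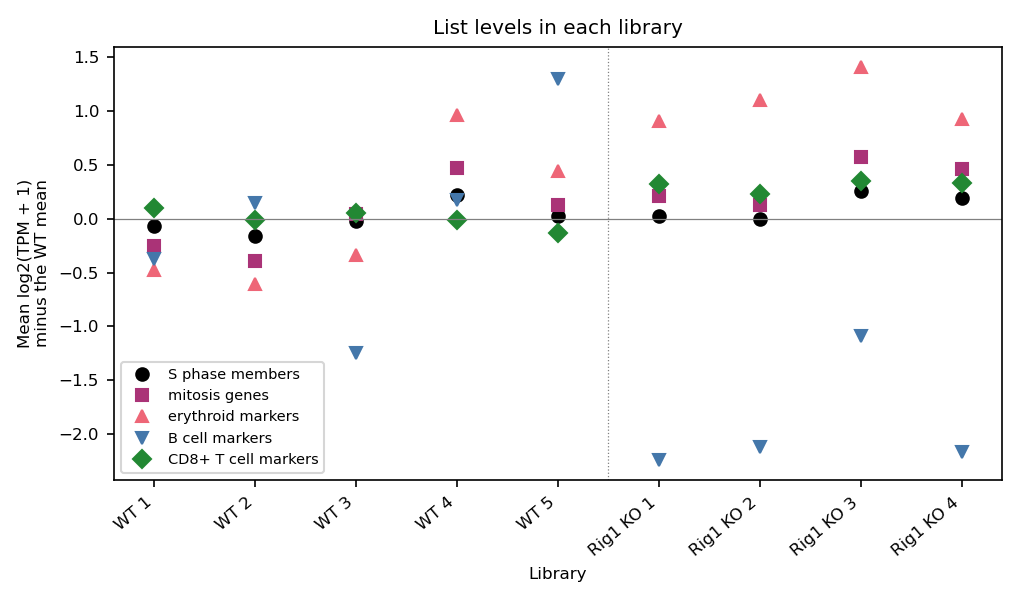
Mean log2(TPM + 1) over the genes of 5 lists, minus the WT mean of that list, in each of the 9 libraries. The replication genes (black) and mitosis genes (purple) rise and fall together within each genotype, from -0.16 and -0.40 in WT 2 to 0.22 and 0.47 in WT 4, and the B cell markers (blue) are lowest in Rig1 KO 1, 2 and 4.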

How the data were processed

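Poly(A) RNA was sequenced from 5 WT and 4 Rig1 KO libraries, grouped by the genotype in their labels. The deposited values are TPM, and per the submitters' processing notes the authors used fastp, featureCounts and the mm39 (GRCm39) build; versions, the aligner and the annotation are not given in the sources used here. Whole reads were recovered from the TPM ratios for 100% of the 17934 genes above 0 (within 1e-05), as lower bounds, at 15496262 to 17893558 per library. The length behind the TPM was within 1% of the gene's span, introns included, for 99.1% of 10545 genes matched to the GENCODE annotation of GRCm38, so levels were ordered between genes only after division by exon length. Log2(TPM + 1) was fitted with limma 3.58.1 (trend) in R 4.3.3 over the 10540 genes with at least 1 TPM in at least 4 libraries, with no covariate; p-values were adjusted over those genes by Benjamini-Hochberg at 0.05, and fold changes of low genes are understated by the pseudocount of 1. The fit was also run on simulated reads, drawn independently between libraries at a fixed spread, with few genes changed. In the real data many genes passed and libraries varied together, so that run cannot show how the fit performs on them. Other statistics and figures used Python 3.11.15, pandas 2.3.3 and matplotlib 3.10.9. All folds without "log2" are ratios of mean TPM, and values after ± are SD over 5 WT and 4 Rig1 KO libraries.

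Per-library values are given for the genes that passed and for Mcm2, Mcm5, Mcm7, E2f1 and Orc1, the last chosen after its values were seen; the other lists give up to 4 genes of smallest p in each direction, besides which Mki67 and the CD8 and CD4 genes were named after their values were seen. The members and the lists were chosen with earlier results of these data known. Alternatives changed the pseudocount, filter, scaling, covariates, replicate block and libraries; 3 were added after the data were seen (exon-length TPM, a mitosis gene covariate, and leaving out WT 4 and WT 5 together).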

Additional observations from a re-analysis of the deposited data

How the results depend on the processing

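The count of replication genes that were higher in Rig1 KO was 7, and became 12 without WT 4 and WT 5, 4 with the mitosis gene covariate, and 5 to 11 with each library left out in turn; WT 4 gave the 11. The count of lower ones was 5, and became 3 with no filter on low values, 8 after median ratio scaling, 2 with the B cell marker covariate, and 4 to 5 with each library left out. Over all 10540 genes tested, the 3526 higher became 3651 without WT 4 and WT 5 and 2423 with the mitosis gene covariate. They became 2835 to 3610 with each library left out. The 1291 lower genes became 1428 of 17934 with no filter and 2267 of 10535 after median ratio scaling. They became 614 with the B cell marker covariate and 1101 to 1285 with each library left out. The B cell marker level differs between the genotypes, so that covariate and the genotype are hard to separate. Small log2 fold changes turned sign. That of Mcm2 was 0.092 with the B cell marker covariate, 0.069 without WT 4 and WT 5, and -0.059 to 0.033 over the libraries left out; with the mitosis gene covariate it was -0.17 and passed (adjusted p = 0.0278; 0.0278 to 0.975 over 18 alternatives). Mcm5 was 0.079 and 0.0040 in the first 2 of these settings, Mcm7 was -0.074 both after median ratio scaling and with the mitosis gene covariate, and E2f1 was -0.15 with the mitosis gene covariate and 0.34 without WT 4 and WT 5, where it passed (adjusted p = 0.0193; 0.0193 to 0.999 over 18 alternatives). Mcm5 passed as lower with the mitosis gene covariate (-0.30, adjusted p = 0.00925). The cause was not tested. Ccne2 gave no value under a mean of at least 5 TPM, and under exon-length TPM 7 genes were higher and 6 lower, Orc1 among the lower. Under exon-length TPM, 3402 of all 11480 genes tested were higher and 1738 lower.

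The replicate numbers in the titles are shared between the genotypes, but over all 10540 genes tested same-numbered libraries did not deviate together. The correlations of their deviations were 0.097, -0.060, -0.0996 and -0.072 for numbers 1 to 4, and 1 of the 4 Rig1 KO libraries correlated best with its own number. In the replication and mitosis means, however, numbers 1 and 2 lay below numbers 3 and 4 in both genotypes. The mitosis means of numbers 1 to 4 were -0.25, -0.40, 0.04 and 0.47 in WT and 0.21, 0.12, 0.58 and 0.46 in Rig1 KO. Whether the numbers pair libraries was not tested. With the replicate block, 16 mitosis genes were higher in place of 4, and of the replication genes 8 were higher, Mcm10 added, and 4 lower, Ccne2 not passing (adjusted p = 0.0952; 0.00834 to 0.462 over 17 alternatives). Of all 10540 genes tested, 3595 were then higher and 1182 lower. WT 5 has no Rig1 KO library of its number, so under the block it adds nothing to the estimated genotype difference. Without WT 5 and with no block, 5 mitosis genes were higher, and of the replication genes 7 were higher and 5 lower. The counts over all genes were then 3592 higher and 1221 lower. Genes with few reads limit the precision: the fewest in any library were 50 among the tested members.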

Other observations

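On levels divided by exon length, the replication genes were put in order. Whether reads within introns were counted is not known here, and such reads would raise genes with long introns on this scale. The span was 8.99 times the exon length for Rpa1, 6.02 times for Mcm6 and 1.73 times for Pcna. Whether the ranks reflect mRNA abundance was not tested. Pcna was the highest of the 39 on this scale in WT, at 269 ± 10.7 TPM (SD, n = 5), and rank 3 in Rig1 KO, at 149 ± 9.09 TPM (SD, n = 4), behind Rpa1 at 151 ± 9.44 TPM and Mcm6 at 149 ± 7.75 TPM, from which it did not differ beyond the spread. Orc6 went from rank 10 to rank 15, with means of 68.5 and 41.5 TPM, and Ccne1 from rank 22 to rank 16, with means of 18.7 and 41.4 TPM. Orc1 was the lowest in both groups, at 2.196 and 1.13 TPM.

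The ratio of Ccne1 to Ccne2 TPM within a library was 2.25, 2.35, 2.84, 2.95 and 2.08 in WT 1 to 5 and 7.73, 10.3, 7.83 and 7.75 in Rig1 KO 1 to 4, on the deposited scale, whose lengths include introns. The ratio is as uncertain as the Ccne2 values, since Ints8 covers 41.9% of the Ccne2 span on the opposite strand. Relative spread in WT ran from 2.52% of the mean for Rpa1 to 44.6% for E2f8, with Cdc6 at 36.1%, Mcm10 at 35.4% and Cdc45 at 30.6%, and a median of 13.8% over the tested members. In Rig1 KO it ran from 4.53% to 24.04%, with a median of 12.6%.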
